A study of Mus musculus with 6 samples.

Results

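Iron uptake, storage and release genes of the mouse were examined for NUP214 peaks in leukemia stem cells (LSCs) and hematopoietic stem cells (HSCs). The genes were Tfrc, Steap3, Slc39a14, Pcbp2, Fth1, Ftl1, Ncoa4, Slc40a1, Aco1 and Ireb2, 10 of 21887 protein-coding genes in the RefSeq annotation of GRCm38.p6, the same assembly as mm10. They were named for their part in iron handling, with earlier results of these data known, and all 10 were found by symbol. For each gene every deposited peak in the gene, within 1 kb of either gene end or within 50 kb of the gene was collected from every library.

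Cells take up transferrin-bound iron through the transferrin receptor, reduce it in the endosome and pass it to the cytosol, where ferritin stores what is not used. Ferritin is returned to the lysosome by a selective autophagy receptor when iron is needed, and ferroportin is the exporter. A pair of iron regulatory proteins bind stem loops in the transcripts of the receptor, ferritin and ferroportin and so tie uptake and storage to the iron that is free in the cell. Iron that is neither stored nor exported can drive lipid peroxidation and ferroptosis, the iron-dependent cell death named in the title of the study.

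CUT&Tag, in which a transposase tethered by an antibody cuts the chromatin near its target, was carried out with an antibody to NUP214, a nucleoporin of the cytoplasmic face of the nuclear pore. Nup214-HET LSCs came from mice with MLL-AF9 acute myeloid leukemia and the genotype Nup214fl/+,Tie2-Cre, control LSCs from such mice with the genotype Nup214fl/+, and HSCs from Nup214fl/+ mice. All 3 groups thus had 1 floxed Nup214 allele by genotype. Tie2-Cre, which acts in blood and endothelial cells, was present in Nup214-HET mice alone. Cre excises a floxed allele, so by design Nup214-HET LSCs alone lose 1 copy of the gene for the antibody's target. Excision was not checked here. LSCs were sorted from bone marrow as lineage-negative, Sca-1-negative cells with c-Kit, CD16/32 and CD34, and HSCs as CD48-CD150+ LSK cells. Each group had 2 libraries. The cell type label read hematopoietic stem cell for all 6 libraries. No strain or age was given for the groups, and no label tied the libraries of a group to separate animals, so the spread between them may be technical.

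The authors called peaks in each library on its own, and list length differed widely. Nup214-HET LSC libraries 1 and 2 had 5452 and 4681 peaks, control LSC libraries 25437 and 10525, and HSC libraries 1045 and 634. Read totals were not in the lists. The depth implied by the caller's background, relative to the lowest library, was 1.77 and 1.72 in Nup214-HET LSCs, 3.72 and 1 in control LSCs, with 4.90 and 1.95 in HSCs. The short HSC lists did not go with the lowest implied depth, and the longer control list came from the control library with the higher implied depth. Implied depth is not a read count and rests on assumptions given below, and the cause of list length was not tested. No library without the antibody was among the samples analysed here. Peaks do not measure expression, so the sorted cell types could not be checked from them. Of the genes that define the LSC gate 0 of 4, and of those of the HSC gate 0 of 3, had a peak within 1 kb of a gene end in both libraries of any group. Likewise 0 of 10 erythroid, 0 of 8 macrophage and 0 of 5 B cell markers had one. Of 5 T cell markers 1 had one, Cd3d, a T cell receptor subunit, in all 4 LSC libraries. Of 6 neutrophil markers 1 had one, Mpo, a granule enzyme, in both control LSC libraries. The share of all coding genes was 6.76% in Nup214-HET LSCs, 21.3% in control LSCs and 0.0411% in HSCs, so these small lists do not stand out.

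NUP214 peaks lay at an end or listed start of most iron genes in both control LSC libraries (9 of 10, against 22.9% of all coding genes). Fewer had one in both Nup214-HET LSC libraries (3 of 10, against 7.29%). No HSC library had one there, against 0.0457% of all coding genes in both HSC libraries. All coding genes were thus also marked less often in Nup214-HET LSCs and in HSCs. The sequences before the starts of 5 genes are printed so that starts under a peak can be set beside starts of the same gene under none (Fth1 and Steap3), and beside those of the receptor, the light ferritin chain and the ferritin autophagy receptor. Each is the 250 bases before a start listed by RefSeq on GRCm38.p6, 5′ to 3′ on the strand of the gene. Capitals mark matches to 6 motifs on either strand, with overlapping matches run together. They are the GC box with the letters GGGCGG, the box known by its letters CCAAT, the core of the ETS family sites with the letters CCGGAAG, the core of the antioxidant response element with the letters TGACNNNGC, the E-box with the letters CACGTG and the box of core promoters with the letters TATAAA. The windows are those of Tfrc at chr16:32608646-32608895 (plus strand), of Fth1 before its outer start at chr19:9980350-9980599 and before its inner start at chr19:9982396-9982645 (both plus strand), of Ftl1 at chr7:45459887-45460136 (minus strand), of Ncoa4 before its first start at chr14:32159637-32159886 (plus strand), and of Steap3 before its outer start at chr1:120271081-120271330 and before an inner start at chr1:120265287-120265536 (both minus strand).
Tfrc: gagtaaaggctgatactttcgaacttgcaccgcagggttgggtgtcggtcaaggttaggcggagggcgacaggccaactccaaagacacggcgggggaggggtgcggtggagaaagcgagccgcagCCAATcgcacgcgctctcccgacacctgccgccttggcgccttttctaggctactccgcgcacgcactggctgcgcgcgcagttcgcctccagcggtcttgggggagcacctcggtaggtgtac
Fth1, outer start: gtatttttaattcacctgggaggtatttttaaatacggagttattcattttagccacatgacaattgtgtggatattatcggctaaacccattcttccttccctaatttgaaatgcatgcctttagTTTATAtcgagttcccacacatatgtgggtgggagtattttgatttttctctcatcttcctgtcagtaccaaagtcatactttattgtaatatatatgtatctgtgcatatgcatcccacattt
Fth1, inner start: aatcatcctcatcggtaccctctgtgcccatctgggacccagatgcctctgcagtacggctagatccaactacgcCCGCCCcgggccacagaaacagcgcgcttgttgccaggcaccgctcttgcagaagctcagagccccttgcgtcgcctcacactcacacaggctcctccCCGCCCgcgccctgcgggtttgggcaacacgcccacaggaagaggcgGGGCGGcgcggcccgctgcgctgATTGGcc
Ftl1: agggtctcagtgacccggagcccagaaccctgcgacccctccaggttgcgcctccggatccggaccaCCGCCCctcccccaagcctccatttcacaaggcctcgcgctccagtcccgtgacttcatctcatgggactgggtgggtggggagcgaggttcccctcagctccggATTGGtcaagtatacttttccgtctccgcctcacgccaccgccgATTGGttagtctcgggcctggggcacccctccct
Ncoa4, first start: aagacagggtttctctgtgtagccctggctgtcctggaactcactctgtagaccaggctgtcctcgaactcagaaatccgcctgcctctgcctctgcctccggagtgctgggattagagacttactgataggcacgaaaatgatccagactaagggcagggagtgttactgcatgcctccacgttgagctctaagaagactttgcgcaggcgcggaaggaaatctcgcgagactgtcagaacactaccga
Steap3, outer start: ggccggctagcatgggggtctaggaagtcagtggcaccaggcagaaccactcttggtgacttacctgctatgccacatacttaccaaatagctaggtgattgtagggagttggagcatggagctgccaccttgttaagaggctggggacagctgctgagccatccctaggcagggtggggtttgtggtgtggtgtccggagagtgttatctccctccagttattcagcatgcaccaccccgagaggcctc
Steap3, inner start: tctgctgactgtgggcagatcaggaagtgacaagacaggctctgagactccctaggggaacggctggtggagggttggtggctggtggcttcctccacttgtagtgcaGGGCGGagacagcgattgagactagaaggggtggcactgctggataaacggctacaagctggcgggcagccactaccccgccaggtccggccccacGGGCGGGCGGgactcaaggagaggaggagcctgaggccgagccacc

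The outer Fth1 window held 3 CG dinucleotides, 34.8% G and C and a TATA box, and no library had a peak on it. The inner window, 2046 bases further into the gene, held 21 CG dinucleotides, 66.8% G and C, 3 GC boxes and a CCAAT box, and it lay under a peak in 3 libraries. The Ftl1 window, with 17 CG dinucleotides, 1 GC box and 2 CCAAT boxes, lay under a peak in all 4 LSC libraries. The outer Steap3 window held 3 CG dinucleotides and none of the 6 motifs, against 11 CG dinucleotides and 3 GC boxes in the inner one, which lay under a peak in both control LSC libraries. Motifs and peaks did not always go together: the first Ncoa4 window, with 11 CG dinucleotides and none of the 6 motifs, lay under a peak in 3 libraries, and 2 other Steap3 windows, 1 with a GC box and 1 with a CCAAT box, lay under none. No promoter sequence was listed for Slc39a14 and Slc40a1.

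The 8 genes with listed starts had 16 of them. Of these windows 12 lay under a peak in at least 1 library and held 10 to 33 CG dinucleotides (median 22), whereas the 4 windows under no peak held 3 to 5 (median 3.5). Over all coding genes the median was 10 in 21263 windows of 17492 genes. Some windows of Tfrc, of Pcbp2 and of Ncoa4 overlap, so the 16 are not independent. Windows of the genome at large divided by CG content in the same direction. They were counted by a stricter rule, a peak in both libraries of a group, and so give no background for 12 of 16. Among windows with at least 10 CG dinucleotides, 10.8% lay under a peak in both Nup214-HET LSC libraries, 32.5% in both control LSC libraries and 0.0188% in both HSC libraries. Among windows with fewer than 10 the shares were 0.98% in Nup214-HET LSCs, 3.00% in control LSCs and 0% in HSCs. Of the motifs, a GC box stood in 10 of 16 iron gene windows and in 42.6% of all windows, and a CCAAT box in 4 of 16 and in 35.4%. The ETS core stood in 2 windows, both of Pcbp2, and in 8.98% of all, and the TATA box in 2 and in 11.6%. The Pcbp2 windows overlap and hold the same ETS site, and GC boxes in overlapping windows were likewise counted in each. The antioxidant response element core stood in 1, before the third start of Ncoa4, and in 10.4% of all, and the E-box in 0 and in 6.63%. A match describes the letters and does not show that a factor binds there.

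**Figure D1:**
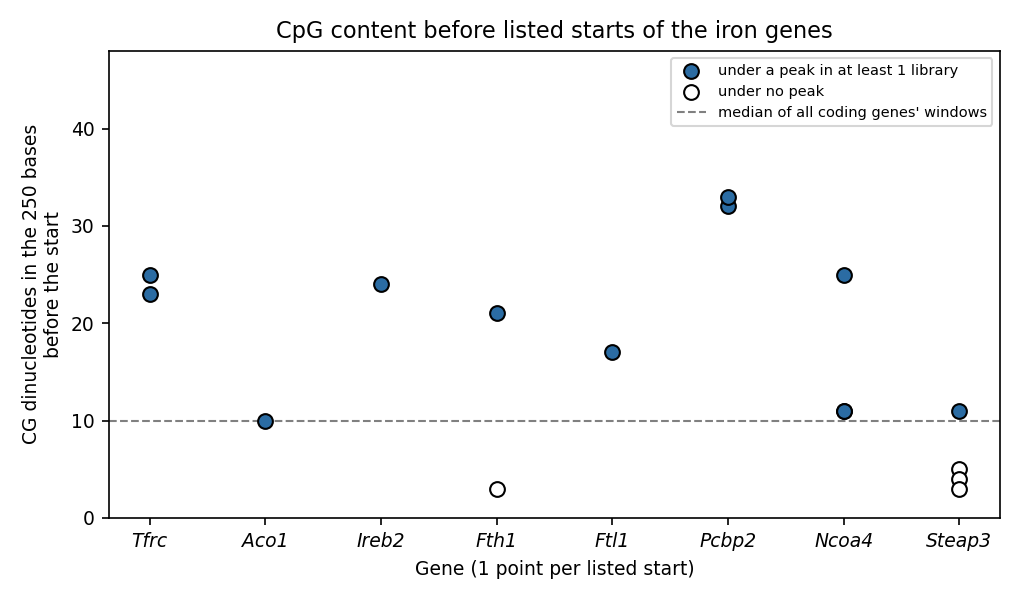
CG dinucleotides (y axis) in the 250 bases before each listed start of 8 iron genes (x axis), filled where a NUP214 peak of at least 1 library overlapped the window and open where none did. The open points, 1 of Fth1 and 3 of Steap3, lie at 3 to 5, under the dashed median of 10 for all coding genes, and the filled points lie at 10 to 33.

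Within 1 kb of a gene end, 4 of the 10 genes had a peak in Nup214-HET LSC library 1 (background 11.5% of all coding genes) and 2 in library 2 (background 9.49%). In control LSC library 1 there were 7 (background 43.3%) and in library 2 there were 6 (background 21.9%). HSC libraries 1 and 2 had 0 and 0 (backgrounds 1.04% and 0.0868%). Counting genes with a peak in both libraries of a group gave 2 genes in Nup214-HET LSCs (20.0%, background 6.76%), which were Ftl1 and Ncoa4. Control LSCs had 6 such genes (60.0%, background 21.3%), namely Tfrc, Aco1, Ireb2, Ftl1, Slc39a14 and Pcbp2, and HSCs had 0 (background 0.0411%). The share of iron genes exceeded that of all coding genes in both LSC groups. The genes were chosen with earlier results of these data known, so this difference is given as a description only. In HSCs the background itself was so low that 0 of 10 says nothing of these genes.

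A gene end misses starts that lie inside the gene, and 3 genes had peaks at such starts. When each listed start was searched as well, an extension chosen after the data had been seen, Fth1, Ftl1 and Ncoa4 had a peak in both Nup214-HET LSC libraries (3 of 10, background 7.29%). All genes but Slc40a1 had one in both control LSC libraries (9 of 10, background 22.9%), and none did in HSCs (background 0.0457%). Taking peaks anywhere in the gene or within 1 kb of it gave the same counts of 3 in Nup214-HET LSCs (background 9.37%), 9 in control LSCs (background 29.1%) and 0 in HSCs (background 0.393%). Within 50 kb the counts were 6 in Nup214-HET LSCs (background 27.1%), 9 in control LSCs (background 58.0%) and 0 in HSCs (background 1.35%).

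**Figure D2:**
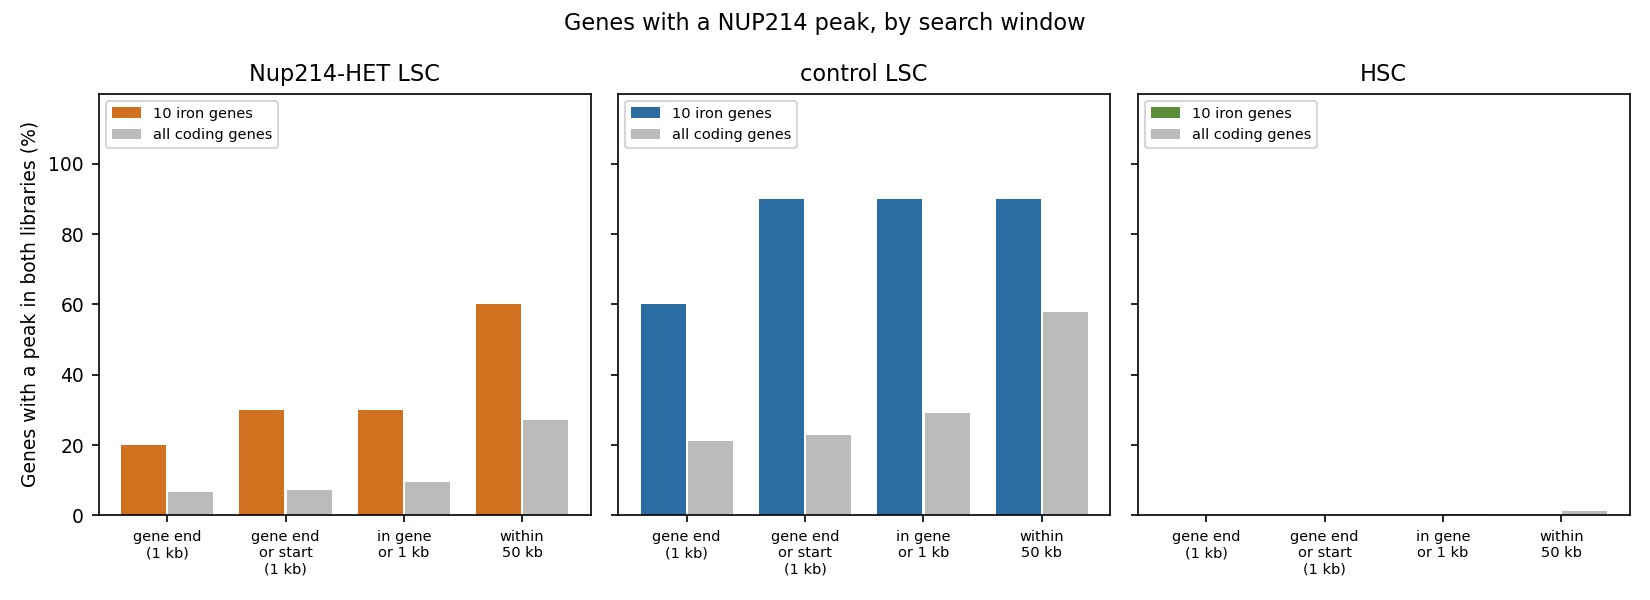
Percentage of genes with a NUP214 peak in both libraries of a group (y axis), for the 10 iron genes (coloured) and all 21887 coding genes (grey), by search window (x axis) and group (panels). In control LSCs the coloured bars stand at 60% to 90% and the grey ones at 21.3% to 58.0%, in Nup214-HET LSCs the coloured bars stand at 20% to 60%, and in HSCs they are at 0.

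At gene ends 1 gene, Ftl1, had a peak in all 4 LSC libraries (background 5.82%), and with listed starts there were 3, Fth1, Ftl1 and Ncoa4 (background 6.31%). Ireb2, Slc39a14 and Pcbp2 had a peak within 1 kb of an end in the 2 control LSC libraries but in neither Nup214-HET LSC library (3 of 10, background 10.8%), and with listed starts Steap3 joined them (4 of 10, background 11.6%). Of the 6 genes marked at an end in both control libraries, 1 (16.7%) had one in both Nup214-HET libraries, 2 (33.3%) in 1 of them and 3 (50.0%) in neither, against 27.3%, 21.9% and 50.7% of the 4655 coding genes so marked. Of the 9 genes marked in both control libraries with listed starts, 3 (33.3%) had a peak in both Nup214-HET libraries, 2 (22.2%) in 1 of them and 4 (44.4%) in neither. For the 5012 coding genes so marked the shares were 27.5%, 21.7% and 50.7%. The share with a peak in both Nup214-HET libraries was thus below that of all coding genes by gene ends and above it with listed starts, on counts of 1 and 3 genes.

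The lower counts in Nup214-HET LSCs stand beside shorter lists. Every list was then cut to its 634 strongest peaks by q, the length of the shortest. After this 0 of the 10 genes had a gene-end peak in both libraries of Nup214-HET LSCs (background 1.72%), of control LSCs (background 1.82%) or of HSCs (background 0.0411%). With backgrounds this low, 0 of 10 says nothing of the iron genes in particular. The only iron gene with a gene-end peak in any list so cut was Ftl1, in Nup214-HET LSC library 2, so the counts rest on peaks below the strongest of each list. An exact two-sided permutation test over libraries, applied to the within-list percentile of the strongest gene-end peak, cannot go below p = 0.33 with 2 libraries against 2. In all 3 contrasts 0 of 21887 genes had a p under 0.05. The iron genes are therefore described by presence, fold and rank in each library.

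The uptake genes are taken first. Tfrc encodes the transferrin receptor, and its peak region at chr16:32608680-32609259 covered the first listed start. Fold enrichment is given by the authors' caller for the summit against local background, and is read here as (pileup + 1)/(background + 1). Folds of different lists are therefore not on a common scale. In Nup214-HET LSCs the Tfrc peak had a fold of 4.91 in library 1, rank 3009 of 5452 by fold, and there was no peak in library 2. In control LSCs the folds were 14.8 and 5.59, ranks 1008 of 25437 and 5370 of 10525, and in HSCs no peak was listed. The gene was therefore in the top 3.96% of 1 control list. It was near the middle of the other (top 51.0%) and of the list of Nup214-HET LSC library 1 (top 55.2%). Recovered summit pileups, the number of overlapping fragments, were 12 in Nup214-HET LSC library 1 against 52 and 7 in control LSCs, the lower of which came from the shallowest library.

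Steap3 encodes a ferrireductase that reduces endosomal iron in erythroid precursors. Its peak region, chr1:120264924-120265564, was at a listed start 5795 bases inside the gene. No peak was present in either Nup214-HET LSC library, folds were 10.3 and 6.92 in control LSCs (top 17.3% and 32.3% of the lists, pileups 27 and 9), and HSCs had none. This was the only peak region within 50 kb of Steap3 in any of the 6 lists.

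Slc39a14 encodes ZIP14, an importer of zinc and of iron that is not bound to transferrin. At its end, chr14:70351135-70351585, Nup214-HET LSCs had no peak, and control LSCs had folds of 10.4 and 3.41. The fold of 3.41 had rank 10257 of 10525, a pileup of 3 and a −log10 q of 1.55, just above the limit of the list. A second region inside the gene, chr14:70333677-70334377, had a fold of 7.39 in Nup214-HET LSC library 1, in the top 13.9% of its list, no peak in library 2, and folds of 11 and 5.32 in control LSCs. The inner region of Slc39a14 thus had a higher fold than its gene end in both control libraries. HSCs had a peak at neither.

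Pcbp2 encodes an RNA-binding protein that also acts as a chaperone delivering iron to ferritin. Nup214-HET LSCs had no peak at chr15:102470249-102470555, where control LSCs had folds of 14.7 and 6.75, ranks 1035 of 25437 and 3627 of 10525, with pileups of 49 and 9. A weaker control peak with a fold of 5.29 lay at chr15:102470930-102471145 in library 1 alone. HSCs had none.

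The storage genes Fth1 and Ftl1 encode the heavy and the light chain of ferritin, and with Ncoa4 they were the genes with a start peak in both Nup214-HET LSC libraries. At the inner start of Fth1, chr19:9982407-9983340, folds were 4.00 and 4.94 in Nup214-HET LSCs, against 8.81 and 5.53 in control LSCs. These ranked in the top 82.9% and 53.3% of the Nup214-HET lists and the top 26.2% and 51.8% of the control lists. The summits lay 95 and 101 bases after the inner start in Nup214-HET LSCs, and 90 and 184 bases before it in control LSCs. All 4 peaks were more than 1 kb from the outer ends of Fth1, so the search of gene ends alone missed them. Both ferritin genes have processed pseudogenes elsewhere in the genome, and how reads that map to several places were treated is not given in the sources used here.

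The Ftl1 peak at chr7:45459423-45460117 had folds of 4.73 and 5.64 in Nup214-HET LSCs, against 9.17 and 7.18 in control LSCs. Its ranks were 3242 of 5452 and 1644 of 4681 in Nup214-HET LSCs, against 6065 of 25437 and 3131 of 10525 in control LSCs. Summit pileups were 26 and 29 in Nup214-HET LSCs, against 54 and 14 in control LSCs, so by pileup, not scaled for depth, the groups overlapped. Local background pileups of Ftl1, at 4.71 and 4.32 in Nup214-HET LSCs, against 5.00 and 1.09 in control LSCs, were the highest of all iron gene start peaks in each of these libraries. By percentile Ftl1 averaged 52.7 in Nup214-HET LSCs and 73.2 in control LSCs, a difference of −20.5 (exact permutation p = 0.33, the smallest possible), and it depended on the setting. With the percentile taken on −log10 q the difference for Ftl1 was −0.754, with lists cut to equal length it was 2.29 (exact permutation p = 1 for both), and it was −8.31 without Nup214-HET LSC library 1 and −32.7 without library 2.

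Ncoa4 encodes the receptor that takes ferritin to autophagy, and the start that was marked differed between libraries. At its first start, chr14:32159545-32160206, folds were 5.89 and 5.10 in Nup214-HET LSCs, and 11.8 with no peak in library 2 in control LSCs. At chr14:32165411-32165927, which covers 2 inner starts 5707 and 5910 bases into the gene, Nup214-HET LSCs had no peak and control LSCs had folds of 11.5 and 6.35. The first start was therefore marked in 3 LSC libraries and the inner starts in both control libraries alone. At the first start the pileups were 18 and 14 in Nup214-HET LSCs and 34 in control LSC library 1. The control library without a peak at the first start was the shallowest, and the part of depth in this difference was not tested.

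**Figure D3:**
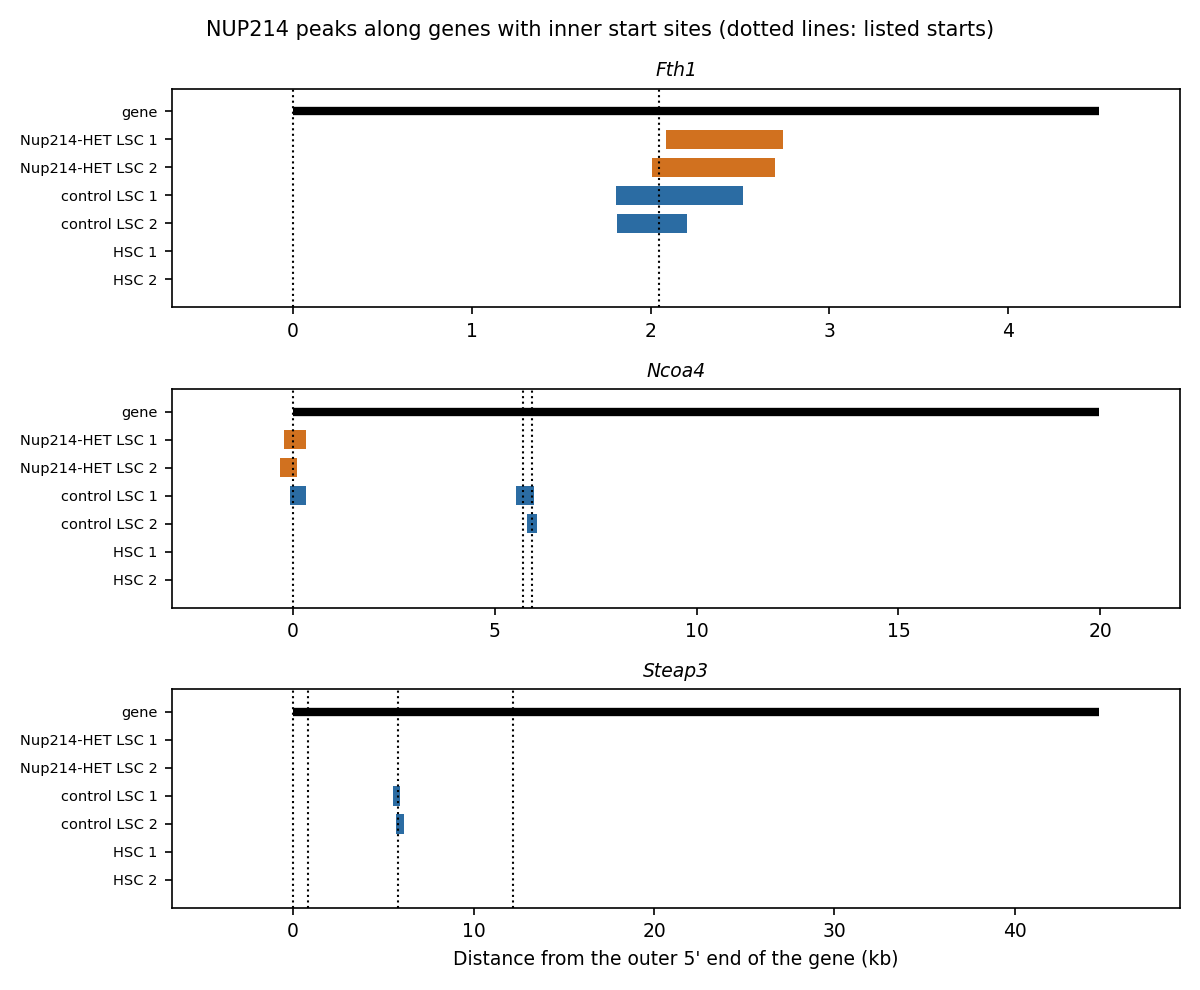
NUP214 peaks of the 6 libraries (rows, coloured by group) along Fth1, Ncoa4 and Steap3 (panels), against distance from the outer 5′ end of the gene in kb (x axis), with listed starts as dotted lines. The Fth1 peaks of the 4 LSC libraries gather at the inner start, Nup214-HET LSC peaks on Ncoa4 lie at its first start and not at the inner ones, and the Steap3 peaks belong to control LSCs.

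Slc40a1 encodes ferroportin, the iron exporter. No library had a peak within 50 kb of chr1:45908070-45926532, the span of Slc40a1, which made it the only iron gene without one.

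The sensors Aco1 and Ireb2 encode the iron regulatory proteins IRP1, which is also the cytosolic aconitase, and IRP2. The Aco1 peak at chr4:40142821-40143681 had a fold of 5.95 in Nup214-HET LSC library 1 (top 30.9%), none in library 2, and folds of 14.4 and 9.90 in control LSCs (top 4.74% and 10.6%). Its pileup was 12 in Nup214-HET LSC library 1, against 66 and 16 in control LSCs, which were the highest among the end and start peaks of the 10 genes in each control library. Aco1 and Tfrc had the same pattern, with a peak in 1 Nup214-HET and both control LSC libraries.

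At its start Ireb2 had a peak at chr9:54863470-54863976 in control LSCs with folds of 8.96 and 7.44 and in no other group. The summits lay 951 and 1066 bases from the outer end of the gene, and 146 and 31 bases before its listed start, so this gene stood at the edge of the 1 kb window. Just outside the window was a region 1.04 kb from Ftl1, at chr7:45460922-45461182 and near the end of Bax, a gene of the apoptosis machinery, with no peak in Nup214-HET LSCs and folds of 6.07 and 7.28 in control LSCs. Nup214-HET LSC library 2 had 2 peaks inside Ireb2 that were in no other library, with folds of 6.84 and 4.31 and pileups of 9 and 5.

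**Figure D4:**
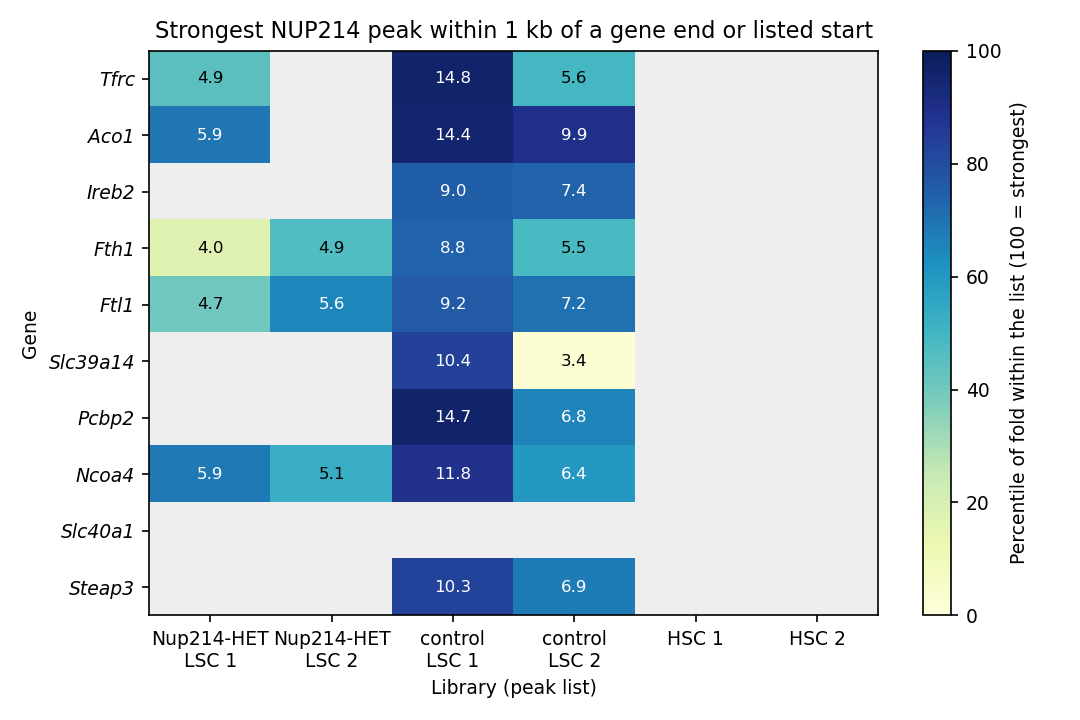
Strongest NUP214 peak within 1 kb of a gene end or listed start for the 10 iron genes (rows) in the 6 libraries (columns). Numbers are the authors' folds, colour is the percentile of the fold within its own list (100 is the strongest) and light grey is no peak, as in both HSC columns and the whole Slc40a1 row.

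The strongest end or start peaks of iron genes had a median percentile of 44.8 in Nup214-HET LSC library 1 (5 genes) and 53.1 in library 2 (3 genes), against 68.4 and 68.6 over all coding genes with such a peak. In control LSCs the medians were 83.3 and 65.5 (9 genes each), against 75.1 and 70.7. Iron genes with a peak thus stood below the median gene in both Nup214-HET libraries and in control library 2, and above it in control library 1. Since a gene enters these medians only where it has a peak, they describe different genes in different libraries.

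**Figure D5:**
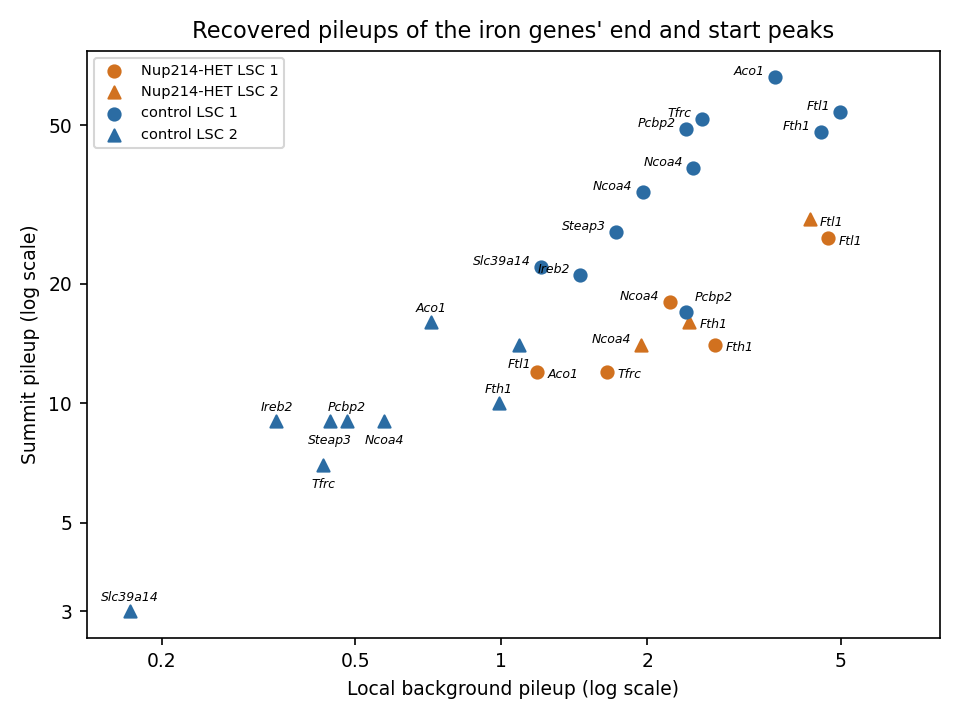
Summit pileup (y axis) against local background pileup (x axis), both on log scales, of the end and start peaks of iron genes in the 4 LSC libraries, recovered from the authors' fold and p columns. Nup214-HET LSC peaks lie at summit pileups of 12 to 29, those of control LSC library 1 at 17 to 66 and those of the shallower control LSC library 2 at 3 to 16.

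Pileups of Nup214-HET LSCs were above those of control LSC library 2 for Tfrc, Fth1 and Ftl1 and below it for Aco1, and for these 4 genes they were below those of control LSC library 1. For Tfrc, Fth1 and Ftl1 the Nup214-HET pileups, not scaled for depth, were thus within the spread between the control libraries, and for Aco1 below both. The lowest background pileup was 0.393 and 0.392 in Nup214-HET LSCs, against 0.374 and 0.0991 in control LSCs. Control LSC library 2 thus set the lower edge of that spread. By fold, taken against local background, the Nup214-HET peaks of these 4 genes were below those of both control libraries. The lists differ in background and length.

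Summits were close to annotated starts. Of 28 end or start peaks, 26 belonged to genes with a listed start, their median distance from summit to start was 85 bases, and 18 (69.2%) were within 100 bases, with a range of 4 to 417. For all coding genes the share within 100 bases was taken per library. It was 27.1% and 24.9% in Nup214-HET LSCs, 44.2% and 41.1% in control LSCs, with 14.9% and 4.76% in HSCs. A start marked in several libraries was counted in each, so Fth1 and Ftl1 gave 4 peaks each and Ncoa4 gave 5. The 26 peaks are therefore not independent, and their pooled share is not matched to the shares per library. Either gene end was searched, so the shares of all coding genes can include peaks at ends away from a start. The Tfrc and Ftl1 summits were closest, at 4 to 47 and 4 to 43 bases, and those of Pcbp2 were farthest, at 105 to 417 bases.

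Peaks around the genes numbered 12 and 13 within 50 kb in Nup214-HET LSCs, 41 and 22 in control LSCs, with 0 and 1 in HSCs. The means per iron gene in Nup214-HET LSCs were 1.2 and 1.3, against 0.650 and 0.554 over all coding genes. In control LSCs they were 4.1 and 2.2, against 3.10 and 1.26, and in HSCs 0 and 0.1, against 0.0797 and 0.0375. Merged over libraries these peaks formed 45 regions, of which 31 were away from the gene, its ends and its listed starts. Fth1 had the most regions, 10, then Tfrc and Ftl1 with 7 each.

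Regions in all 4 LSC libraries numbered 5, and 3 of them were distal. These regions, and the neighbouring genes named with them, were chosen after their values had been seen. One lay 48.8 kb from Fth1 at chr19:9931177-9931777, outside coding genes, with folds of 4.85 and 4.88 in Nup214-HET LSCs, against 7.83 and 6.49 in control LSCs. Another lay 23.0 kb from Ftl1 at chr7:45434265-45434989, at the end of Gys1, the muscle glycogen synthase gene, and inside Ruvbl2, an ATPase gene of chromatin complexes, with folds of 6.76 and 6.41 in Nup214-HET LSCs, against 14.1 and 8.0 in control LSCs. The third lay 17.8 kb from Pcbp2 at chr15:102517847-102518839, at the end of Map3k12 and inside Tarbp2, with folds of 6.98 and 6.58 in Nup214-HET LSCs, against 10.5 and 9.0 in control LSCs. A region that lies at another gene's end may belong to that gene, and which gene it serves was not tested.

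A single HSC peak lay near an iron gene. It was at chr19:9996315-9996883, 11.2 kb from Fth1 and inside Best1, a channel gene, with a fold of 5.35 in Nup214-HET LSC library 2, 9.03 and 6.02 in control LSCs, and 9.75 in HSC library 2, where it ranked 90 of 634. No region near the iron genes was in all 6 libraries. Distal to Ireb2, 38 kb away at the ends of Psma4, a proteasome subunit gene, Hykk and AY074887, a region at chr9:54950565-54951059 had a fold of 5.90 in Nup214-HET LSC library 1, none in library 2, and 15 and 9.47 in control LSCs.

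Other genes of iron metabolism were read from 3 lists holding 71 genes. Of 38 genes of mitochondrial iron, heme and iron-sulfur cluster synthesis, 6 (15.8%) had a gene-end peak in both Nup214-HET LSC libraries and 19 (50.0%) in both control LSC libraries. Of 15 other genes of uptake and reduction, 0 had one in Nup214-HET LSCs and 2 (13.3%) in control LSCs. Of 19 other genes of storage, sensing and release, 0 had one in Nup214-HET LSCs and 3 (15.8%) in control LSCs. No list had a gene with a peak in both HSC libraries. Set beside the backgrounds of 6.76% in Nup214-HET LSCs and 21.3% in control LSCs, the first list was above both and the other lists were below both.

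The genes marked in all 4 LSC libraries included Slc25a28, the mitochondrial iron importer mitoferrin 2, Isca1, Ciao1 and Mms19 of iron-sulfur cluster assembly, and Fdxr, which supplies electrons to it. Isca1 had folds of 6.99 and 6.11 in Nup214-HET LSCs, against 13.2 and 11.7 in control LSCs. Fdxr had folds of 5.46 and 5.20 in Nup214-HET LSCs, against 11 and 11.7 in control LSCs. Slc25a28 had folds of 6.92 and 7.83 in Nup214-HET LSCs, against 10.3 and 10.1 in control LSCs, and it was the only other iron gene with an HSC peak, with a fold of 5.92 in library 1. For Slc25a28, Isca1, Mms19 and Fdxr both control folds were above both Nup214-HET folds, in lists that differ in background and length. This was not so for Ciao1, with folds of 7.89 and 4.37 in Nup214-HET LSCs, against 12.3 and 7.10 in control LSCs.

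In control LSCs the heme genes Cpox, Ppox and Fech had a peak in both libraries, and Iscu, the cluster scaffold, Nfs1, its sulfur donor, Lyrm4, Isca2, Iba57, Glrx5, Hspa9, Hscb, Nubp1 and Nubp2 joined the cluster genes. Isca2 had no peak in Nup214-HET LSCs, against folds of 16.3 and 11.3 in control LSCs. The uptake genes with a peak in both control libraries were Trf, the plasma carrier transferrin, and Cybrd1, a ferrireductase, and for both genes the control peaks lay at opposite ends of the gene. The others were Herc2, a ubiquitin ligase linked to NCOA4 turnover, Flvcr1, a heme and choline transporter, and Zfp36, an mRNA decay factor. Herc2 had no peak in Nup214-HET LSCs, against folds of 15.7 and 9.79 in control LSCs. In all, 11 of the 71 genes had a peak in both control libraries and neither Nup214-HET library, against a background of 10.8%.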

How the data were processed

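NUP214 CUT&Tag was carried out on 3 groups of sorted mouse bone marrow cells with 2 libraries each, and groups were taken from the sample titles. Per the submitters' processing notes FastQC 0.11.5, Bowtie2 2.2.9, MACS2 and ChIPseeker were used with the mm10 build. How duplicates were handled, whether a control was used and how MACS2 was set is not given in the sources used here. The authors' deposited lists, 1 per library, give each peak a score, a fold (ratio of summit to local background), a −log10 p, a −log10 q of at least 1.30 to 1.32 and a summit position. The lists hold no counts, so depth was inferred: summit pileup and background were recovered from the deposited fold, read as (pileup + 1)/(background + 1), and the deposited −log10 p, read as a Poisson upper tail, with a relative error of at most 0.0001, in 97.5% to 99.95% of the peaks of a list. Background pileup divided by the smallest peak width is the implied depth, which holds only as far as these assumptions do.

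On autosomes, X and Y, peaks were set against RefSeq genes, with any overlap counted. Starts and promoter windows came from RefSeq, GRCm38.p6, and cover 17492 of 21887 coding genes. The permutation test over libraries was exact and two-sided. Scripts were tested on simulated data. Python 3.11.15, numpy 2.4.6, pandas 2.3.3, scipy 1.17.1 and matplotlib 3.10.9 were used. All 10 iron genes were named whatever their values, and of 71 other iron genes those with a peak at an end in both libraries of a group, of which 1 is not reported here. The genes and lists were chosen with earlier results of these data known. Alternatives were other windows, stricter q, equal list length, the summit or at least 50% of the peak in the window, removal of 109 regions called in all 6 libraries, and each library left out.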

Additional observations from a re-analysis of the deposited data

How the results depend on the processing

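Gene-end counts in both libraries were 2 in Nup214-HET LSCs, 6 in control LSCs, 0 in HSCs and 3 in control but neither Nup214-HET library for the 10 iron genes, and 6, 24, 0 and 11 for the other 71. With a −log10 q of at least 5 the iron gene count in Nup214-HET LSCs was 1, and the other genes in control but neither Nup214-HET library numbered 7, or 17 with a window of 5 kb. With lists cut to equal length the iron gene counts were 0 in Nup214-HET LSCs, 0 in control LSCs and 0 in control alone. Those of the other genes were 1, 1 and 1. The shares of all coding genes were then 1.72%, 1.82% and 0.589%, as fewer peaks remain there by construction. Leaving out 1 library, so that the other decides, gave 2 to 4 in Nup214-HET LSCs (4 without library 2, where Tfrc and Aco1 had no peak), 6 to 7 in control LSCs, 0 to 0 in HSCs and 3 to 5 in control alone. For the other genes it gave 8 to 14, 24 to 49 (49 without control LSC library 2), 0 to 1 and 11 to 33. The share of all coding genes moved as well. It went from 6.76% to 9.49% and 11.5% in Nup214-HET LSCs, and from 21.3% to 21.9% and 43.3% in control LSCs. In HSCs it went from 0.0411% to 0.0868% and 1.04%, and in control alone from 10.8% to between 11.4% and 29.8%. Other settings kept these counts within 1.5 times. Percentile differences of single iron genes reversed in 3 cases, the cause of which was not tested: Ftl1 (Nup214-HET minus control LSC −20.5) came to 2.29 with cut lists, and Ncoa4 (16.2) came to −13.9 with listed starts and −28.2 without control LSC library 2, with a range of −28.2 to 60.7 over libraries left out. A replicate block left every difference as it was, for example −50.1 for Tfrc, with exact p of 0.5 in place of 0.33; 2 pairs cannot go lower. Whether same-numbered libraries were paired could not be decided with 2 libraries a group. Their deviations correlated at 0.0028 between the LSC groups, −0.254 between control LSCs and HSCs and 0.141 between Nup214-HET LSCs and HSCs. Crossing the control LSC and HSC numbers, tried after the data were seen, changed no call. In the shallowest library, control LSC 2, the smallest summit of the list was 30.3 times the lowest background of the list. In the others it was 8.61 to 16.1 times. The smallest summit and the lowest background need not belong to the same peak. Absence of a peak in control LSC 2 may limit the control counts, which was not tested.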
